A study of Mus musculus with 2 samples.

Results

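The 34 genes described here encode the machinery with which nerve terminals and neuroendocrine cells store transmitter in synaptic vesicles and release it. They were listed by name as synaptic vesicle, SNARE and active zone genes, with no measured value in the rule but with earlier results of these data known. All 34 were found among the 18193 genes named on the array, through 84 probe sets. The RNA was from ICR embryos of the mouse at stage E13.5, with 1 pool of internal carotid arteries and 1 pool of external carotid arteries, microdissected according to the labels, untreated and carrying no named allele. The design text gives 22 embryos, and it does not say if both vessels were taken from each. Each pool was hybridised to 1 Affymetrix mouse expression array after amplification from the poly-A tail in 2 rounds, and the series asks about endothelin and the routes of superior cervical ganglion axons, sympathetic axons that run along these vessels. No replicate was made, so every value is a single measurement per vessel, no p-value can be given, and no difference below can be set against a spread between embryos.

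In a nerve terminal, calcium entering at the active zone binds synaptotagmins on a docked vesicle, and the vesicle SNARE VAMP pairs with syntaxin and SNAP25 in the plasma membrane to fuse the membranes. Complexins clamp and promote that step, Rab3 proteins and RIM bring vesicles to the active zone, Munc13 primes them, and synapsins hold the reserve pool. Growing axons of sympathetic neurons already carry such vesicles before synapses form. In RNA from a piece of tissue, fewer cells of a type and less RNA per cell cannot be told apart, and axons hold far less RNA than cell bodies.

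Signals are the deposited linear MAS5 intensities. The floor was the array's own median signal, controls left out (45037 probe sets), which was 47.5 for the internal and 52.3 for the external carotid array. A gene was read from its brightest probe set, and the ratio is the external over the internal carotid signal on the log2 scale. Where 1 side lay under its floor, the other side's signal was divided by that floor, which bounds the fold from below (at least N-fold). No fold was given where both sides lay under their floors, or where the side above its own floor did not exceed the other array's floor. The 2% trimmed mean was 150 on both arrays. Probe sets of one gene differed in log2 ratio with a pooled SD of 0.34, or 1.26-fold, over 4315 genes, which serves as the technical spread. The median log2 ratio of probe sets at or above both floors ran from 0.17 in the dimmest 10% by mean signal to -0.19 in the brightest 10%. The vessel wall genes Acta2, Tagln and Myh11 of smooth muscle and Sox17, Cd34 and Kdr of endothelium read above the floors on both arrays, with log2 ratios of -0.45, 0.30, 0.38, 0.54, 1.15 and 0.07, while the endothelial gene Pecam1 lay under both floors.

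Most of the presynaptic genes read higher in the external carotid pool, by under 2-fold in most cases. Of the 34 genes, 30 gave a ratio or a bound and 4 lay under both floors. A difference of 2-fold or more towards the external carotid was seen in 6 of the 30, against 2.10% of the 12408 genes with a ratio or bound. None of the 30 differed so far towards the internal carotid, against 1.47% of all genes. Over all genes that is 261 towards the external and 183 towards the internal carotid, a split that turned to 202 and 233 after centring on the median, 203 and 219 after quantile normalization and 198 and 224 after loess. The presynaptic count of 6 was 6 after centring and 4 after quantile normalization or loess, with none towards the internal carotid in any of these. The 6 were Cplx1, Doc2b, Syt4, Syt7, Pclo and Rab3b. The median log2 ratio of the 30 was 0.48, and that of all genes with a ratio or bound was 0.06. Above 0 were 27 of the 30, against 56.1% of all genes. Past the technical spread towards the external carotid were 18 of the 30, against 21.6% of all genes, and towards the internal carotid 2, against 14.5%. That spread is the one over all genes. Within the presynaptic genes it was larger, at 0.60 over 7 genes. Most of that came from Cplx1, whose probe sets ran from -0.05 to 2.54.

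Of the 8 bounds, 7 came from genes that reached the floor only on the external carotid array, so these had to point that way, and the counts over the 30 are no support for a direction. Among the 22 genes at or above both floors, 3 differed 2-fold or more towards the external carotid and none towards the internal, against 1.81% and 1.27% of 11263 genes so measured. The median of the 22 was 0.49, against 0.05 for all genes so measured, and 20 of them lay above 0, against 55.5%. With no floor at all, every one of the 34 had a ratio, with 8 past 2-fold towards the external and 1 towards the internal carotid, against 8.19% and 5.98% of all 18193 genes, and the median was 0.55, against 0.07. By probe set, 50 of the 84 had a ratio or bound, of which 11 were past 2-fold towards the external carotid and none towards the internal, against 1.80% and 1.33% of 23896 probe sets. The 11 include bounds that reached the floor only on the external carotid array, and Syt7, Cplx1 and Syn3 by more than 1 probe set each. The count by probe set is therefore no separate support for a direction. The direction was shared by most of the genes, while the sizes ran from near equal to 5.84-fold, as the plots of signal and of ratio by gene show.

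**Figure D1:**
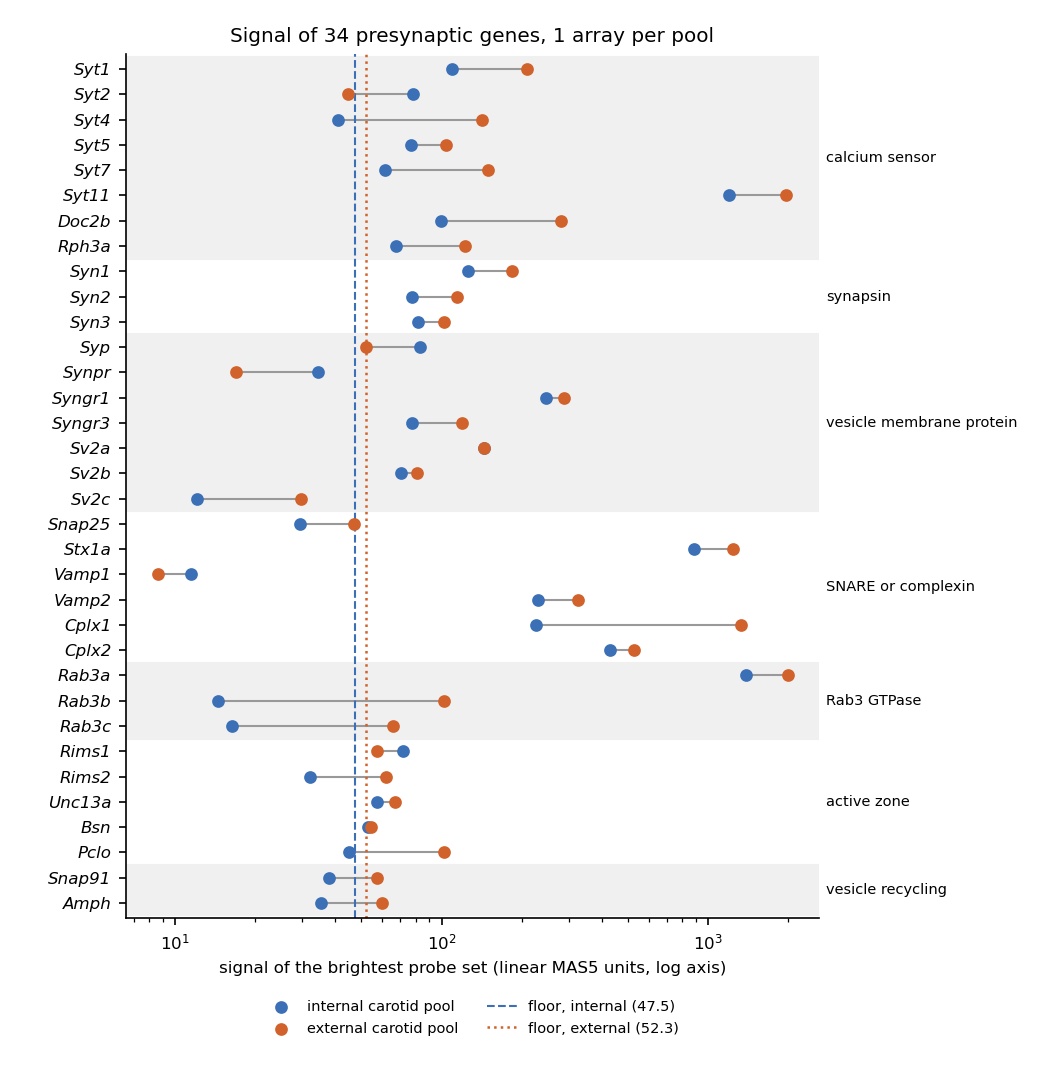
Signal of the brightest probe set of each of the 34 genes in linear MAS5 units on a log axis, 1 point per pool, with the 2 floors as vertical lines and genes grouped by role. The external carotid point lies to the right of the internal one for most genes. Snap25, Sv2c, Synpr and Vamp1 lie under both floors.

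Promoter sequence is shown for the genes past 2-fold that have an entry, for Cplx2 as the relative of Cplx1, and for Syn1, where matches to 2 motifs lay before the start site. Each is the 250 bases before the start site from RefSeq on GRCm38.p6, 5′ to 3′ on the gene's strand, with capitals marking motif matches:
Cplx1, chr5:108550028-108550277, - strand: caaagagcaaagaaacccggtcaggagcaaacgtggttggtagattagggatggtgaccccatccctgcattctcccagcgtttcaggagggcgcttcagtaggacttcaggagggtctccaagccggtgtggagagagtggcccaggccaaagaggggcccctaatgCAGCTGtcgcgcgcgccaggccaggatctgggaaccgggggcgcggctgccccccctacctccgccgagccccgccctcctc
Cplx2, chr13:54302306-54302555, + strand: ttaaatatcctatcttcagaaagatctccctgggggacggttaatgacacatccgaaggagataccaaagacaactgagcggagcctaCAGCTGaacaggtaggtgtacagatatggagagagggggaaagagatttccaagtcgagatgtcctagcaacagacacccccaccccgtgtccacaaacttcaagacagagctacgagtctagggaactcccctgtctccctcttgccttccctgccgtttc
Rab3b, chr4:108878820-108879069, + strand: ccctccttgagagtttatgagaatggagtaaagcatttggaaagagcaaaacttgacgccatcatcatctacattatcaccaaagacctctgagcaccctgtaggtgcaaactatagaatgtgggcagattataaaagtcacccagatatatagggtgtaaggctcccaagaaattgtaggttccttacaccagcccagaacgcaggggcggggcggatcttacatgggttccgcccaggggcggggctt
Pclo, chr5:14514668-14514917, + strand: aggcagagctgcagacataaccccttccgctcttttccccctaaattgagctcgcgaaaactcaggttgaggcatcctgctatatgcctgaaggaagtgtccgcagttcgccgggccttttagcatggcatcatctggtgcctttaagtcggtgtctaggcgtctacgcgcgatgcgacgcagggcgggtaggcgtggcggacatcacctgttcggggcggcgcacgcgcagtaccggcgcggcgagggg
Syn1, chrX:20920919-20921168, - strand: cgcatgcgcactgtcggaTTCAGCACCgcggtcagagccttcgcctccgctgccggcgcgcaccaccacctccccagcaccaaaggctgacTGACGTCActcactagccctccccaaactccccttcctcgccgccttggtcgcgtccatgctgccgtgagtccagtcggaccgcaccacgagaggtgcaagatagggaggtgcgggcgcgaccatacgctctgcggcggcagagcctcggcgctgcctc

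Of the 34 genes, 25 had 1 or more promoter entries, 35 windows in all, and Syt4, Syt5, Syt7, Doc2b, Syn3, Syngr3, Snap25, Vamp2 and Rims2 had none. Windows of 300 bases, 250 before and 50 after the start, were searched on both strands for exact matches to 5 motifs. The motif CAGCTG, an E-box bound by many basic helix-loop-helix factors, matched in 10 of the 25 genes, against 18.3% of 27025 genes. A gene with more windows has more chances to match, and by window the shares were 28.6% of 35 and 16.3% of 32851. In Cplx1 this E-box began 82 bases and in Cplx2 162 bases before the start site. So the pair with the most different ratios, among the pairs of relatives compared below, shared it. The left part of the RE1 element bound by the neuronal gene repressor REST, TTCAGCACC, matched in 2 of the 25, Syn1 and Unc13a, against 0.433% of all genes, and in Syn1 it began 232 bases before the start. The right part, GGACAGC, matched in Rph3a and Unc13a, against 7.59% of all genes, and in 1 Rph3a window it overlapped an E-box match. In Unc13a both parts matched in the same window on the opposite strand, after the start site, the right at position 7 and the left at 22. The cyclic AMP response element TGACGTCA matched in Syn1, 159 bases before the start, against 2.03%, and the homeodomain core TAATTA in none of the 25, against 6.12%. The windows of Rab3b and Pclo held no match to the 5 motifs. Matches are letters in a window and no measure of binding, and the log2 ratios of Syn1, Unc13a and Rph3a were 0.54, 0.23 and 0.87.

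The synaptotagmins, Doc2b and Rph3a, grouped here as calcium sensors and their relatives, held 3 of the 6 genes past 2-fold. These 8 genes, not all of which bind calcium, had a median log2 ratio of 0.90. Syt1, the main fast calcium sensor of forebrain terminals, read 109.5 in the internal and 209.3 in the external carotid pool, a 1.91-fold difference (log2 ratio 0.93). That stood at rank 254 from the external end of the 11263 genes at or above both floors. The other 3 Syt1 probe sets lay under both floors. Syt7, the slow, high-affinity sensor that also acts in neuroendocrine secretion, read 61.4 and 149.7, a 2.44-fold difference (log2 ratio 1.29), at rank 92. A further Syt7 probe set read 48.6 and 127.8 (log2 ratio 1.39), and another 56.9 and 67.4 (log2 ratio 0.24). So 2 of the 3 measured probe sets passed 2-fold, and with the floor added as a pseudocount the ratio of the brightest was 0.89.

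Doc2b, a soluble calcium sensor with C2 domains that supports spontaneous release, read 99.5 in the internal and 281.7 in the external carotid pool, 2.83-fold higher in the latter (log2 ratio 1.501), at rank 56. Its other probe set read 37.9 and 18.6, under both floors. When the 75th percentile was the floor, the bound of Doc2b was 0.96. Syt4, a synaptotagmin of dense-core vesicles in neurons and neuroendocrine cells, read 40.8 in the internal carotid pool, under the floor, and 141.3 in the external, at least 2.97-fold higher. A second Syt4 probe set read 19.6 and 61.9, at least 1.30-fold higher. The median of both bounds was 0.98 on the log2 scale, under the 2-fold line, but bounds are minima. The unfloored log2 ratios of the same signals were 1.79 and 1.66. Both Syt4 probe sets thus reached the floor only in the external carotid pool.

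Syt11, which lacks calcium binding and acts in vesicle trafficking in many cell types, read 1199.6 in the internal and 1951.5 in the external carotid pool (log2 ratio 0.70). All 5 Syt11 probe sets read above both floors and all were higher in the external carotid pool, with log2 ratios from 0.50 to 1.09. The brightest has a name ending in _x_at, which marks probes that may also bind other transcripts, and without it the ratio was 1.09. Rph3a, rabphilin, a Rab3 effector with C2 domains, read 67.2 and 123.0 (log2 ratio 0.87), and Syt5, a calcium-binding synaptotagmin, 76.5 and 104.1 (log2 ratio 0.44). Syt2, the fast sensor of hindbrain, spinal and motor terminals, was the only gene of this group with the opposite direction. It read 78.3 in the internal carotid pool and 44.6, under the floor, in the external, at least 1.497-fold higher in the internal. Its other 2 probe sets lay under both floors. Among synaptotagmins at or above both floors, the ratio of Syt7 exceeded that of Syt5 by 0.84 and that of Syt1 by 0.35. The technical spread of a difference between 2 genes was 0.48. It rests on the 0.34 of all genes. The measured probe sets of Syt7 alone ran from 0.24 to 1.39, so 0.48 may understate the spread here.

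**Figure D2:**
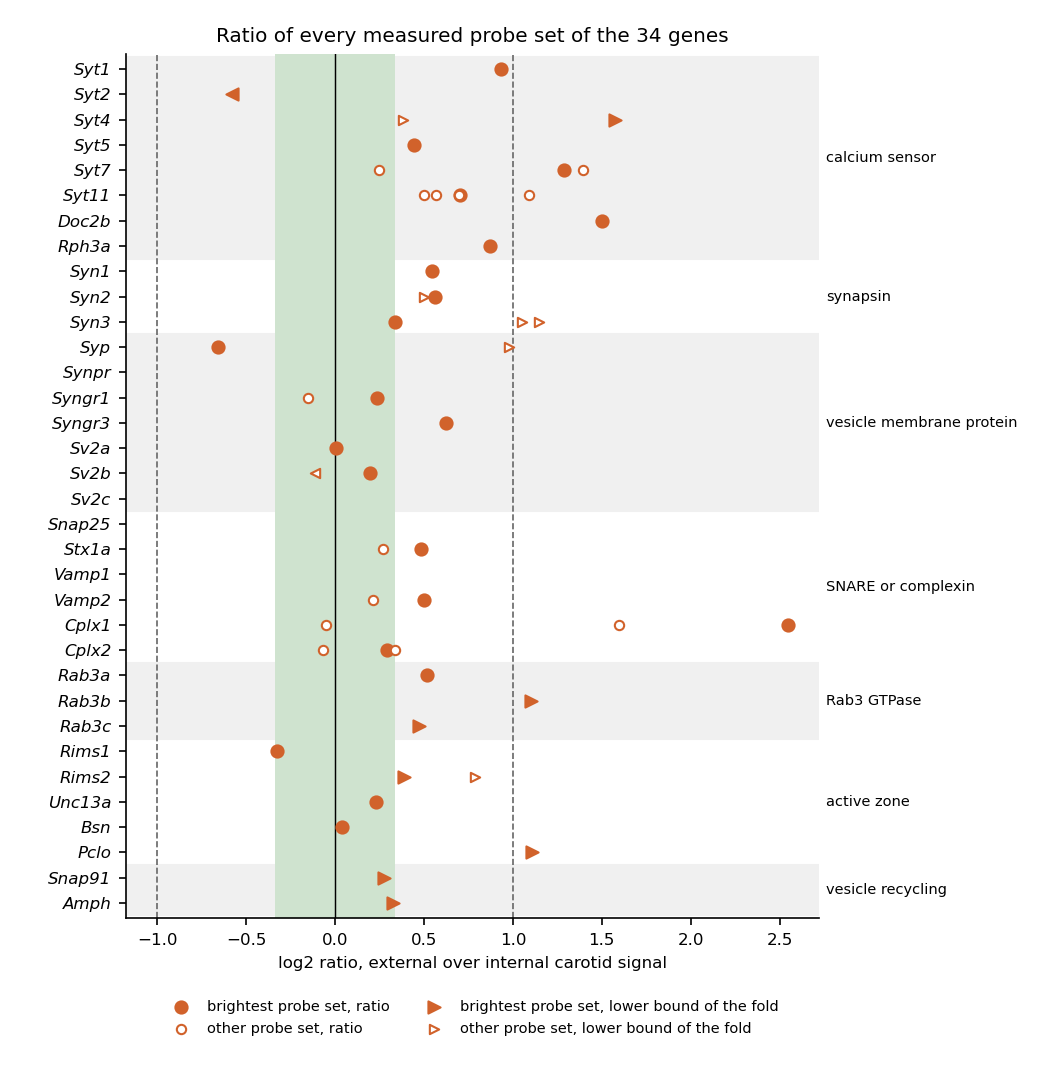
Log2 ratio, external over internal carotid signal, of every measured probe set of the 34 genes, 1 row per gene. Filled symbols are the brightest probe set, open symbols the others, circles ratios and triangles lower bounds of the fold. The green band is the technical spread over all genes, 0.34 on either side of 0, and dashed lines mark 2-fold. Cplx1 spans -0.05 to 2.54 and Syp -0.66 to 0.98, while the 5 Syt11 symbols stay between 0.50 and 1.09.

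Of 8 pairs of relatives compared, the complexins differed most. Complexins are small proteins that bind the assembled SNARE complex, and Cplx1 and Cplx2 are the main forms of neurons. Cplx1 read 226.9 in the internal and 1324.2 in the external carotid pool, 5.84-fold higher in the latter (log2 ratio 2.54), at rank 9 of the 11263 genes. A second Cplx1 probe set read 104.6 and 316.6, 3.03-fold higher (log2 ratio 1.60). The third read 90.1 and 86.8 (log2 ratio -0.05), near equal, so among ratios and bounds those of Cplx1 spread furthest over the probe sets of 1 gene of the 34. The median over its probe sets was 1.60, still past 2-fold, and Cplx1 was the only one of the 34 past 2-fold when the 75th percentile was the floor, and the only one past 3-fold by ratio or bound. Cplx2 read 429.1 and 525.1 (log2 ratio 0.29), with 409.9 and 390.4 (log2 ratio -0.07) and 99.5 and 125.4 (log2 ratio 0.33) at its other probe sets. Without probe sets whose names end in _s_at or _x_at, Cplx2 stood at -0.07. The ratio of Cplx1 exceeded that of Cplx2 by 2.25, against a technical spread of a difference, taken from all genes, of 0.48. The probe sets of Cplx1 alone ran from -0.05 to 2.54, so 0.48 may understate the spread for this pair.

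The SNARE genes themselves had log2 ratios of 0.50 or lower, or lay under the floors. Stx1a, syntaxin 1A of the plasma membrane, read 883.9 in the internal and 1236.7 in the external carotid pool (log2 ratio 0.48) by an _x_at probe set, and 79.3 and 95.4 (log2 ratio 0.27) by the other. Vamp2, synaptobrevin, the main vesicle SNARE of many neurons, read 230.3 and 325.3 (log2 ratio 0.50), with 64.9 and 75.2 (log2 ratio 0.21) at its second probe set. Snap25, the neuronal SNARE that pairs with both, lay under both floors by both of its probe sets, which read 29.5 and 23.1 in the internal and 47.1 and 43.7 in the external carotid pool. Vamp1, the vesicle SNARE of motor and hindbrain terminals, also lay under both floors, at 11.5 and 8.6. No fold is given for either gene, and a signal under the floor does not show that a gene was silent.

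The Rab3 proteins, small GTPases that ride on vesicles and tether them to the active zone, each read higher in the external carotid pool. Rab3b, the form prominent in pituitary and other endocrine cells, read 14.5 in the internal carotid pool and 101.8 in the external, at least 2.14-fold higher (bound of 1.10), from its only probe set. That bound was 0.99 after quantile normalization and 0.94 after loess, just short of 2-fold, while the unfloored log2 ratio of the same signals was 2.81. Rab3c read 16.4 and 65.8, at least 1.39-fold higher, and its other 4 probe sets lay under both floors. Rab3a, the most abundant form in brain, read 1386.4 and 1985.5 (log2 ratio 0.52) by an _x_at probe set. The other Rab3a probe set read 23.2 and 26.1, under both floors, so Rab3a has no value without the first.

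Active zone genes were read near the floors. Pclo, piccolo, a large scaffold, read 44.9 in the internal carotid pool, just under the floor, and 102.2 in the external, at least 2.15-fold higher (bound of 1.11). Its bound was 0.99 after quantile normalization, 0.96 after loess and 0.74 with the pseudocount, so its place past 2-fold was narrow. The other Pclo probe sets lay under both floors, at 19.0 and 37.8, and at 3.3 and 4.3. Bsn, bassoon, the related scaffold, read 53.0 and 54.5 (log2 ratio 0.04), just above the floors, and turned below 0 after centring, quantile normalization and loess. Unc13a, Munc13-1, which primes vesicles, read 57.3 and 67.1 (log2 ratio 0.23). Rims1, a scaffold that binds Rab3 and calcium channels, read 71.6 and 57.1 (log2 ratio -0.33), lower in the external carotid pool by slightly less than the technical spread. The other Rims1 probe set pointed the other way, at 18.5 and 46.2, under both floors. Rims2, the relative of Rims1, read 32.2 in the internal and 62.0 in the external carotid pool, at least 1.31-fold higher in the latter. Another Rims2 probe set read 9.4 and 82.0, at least 1.73-fold higher. A further Rims2 probe set pointed towards the internal carotid, at 49.6 and 31.3, with the external signal under its floor and no fold given. None of the brightest active zone probe sets exceeded 102.2 on either array.

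The synapsins, phosphoproteins that tether vesicles to the cytoskeleton, were all moderately higher in the external carotid pool. Syn1 read 126.1 and 183.8 (log2 ratio 0.54) by its only probe set, and Syn2 77.3 and 114.2 (log2 ratio 0.56), with a second probe set at 37.4 and 67.2, at least 1.41-fold higher. Syn3, the form of developing neurons, read 81.3 and 102.5 (log2 ratio 0.33) by its brightest probe set. Its other 2 read 47.0 and 105.0, at least 2.21-fold higher, and 29.0 and 98.4, at least 2.07-fold higher, so Syn3 passed 2-fold when the probe set brightest on either array or the median was taken. The 3 synapsin ratios lay within 0.23 of each other by the brightest probe sets, which is under the spread of a difference.

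Vesicle membrane proteins had a median log2 ratio of 0.20 over the 5 of 7 that were measured, with Syp read from its brightest probe set. Syp, synaptophysin, the classic vesicle marker, gave opposite readings from its 2 probe sets. The one with the higher mean log2 signal, an _x_at probe set, read 82.7 in the internal and 52.3 in the external carotid pool (log2 ratio -0.66), the latter at the floor. The other read 42.9, under the floor, and 93.7, at least 1.97-fold higher in the external. The direction of Syp therefore turned when the second was taken, as it was without _s_at and _x_at probe sets, by the probe set brightest on either array and by the mean of linear signals. Syngr3, synaptogyrin 3, a form enriched in neurons, read 77.4 and 119.3 (log2 ratio 0.62). Syngr1, its relative, read 245.8 and 288.9 (log2 ratio 0.23), and -0.15 at a second measured probe set. Sv2a, the vesicle glycoprotein bound by the drug levetiracetam, read 143.8 and 144.2, near equal, and Sv2b 70.6 and 81.0 (log2 ratio 0.20), with a second probe set at 56.5 and 31.8, a bound of -0.11. The sign of Sv2a turned after centring, quantile normalization and loess. Sv2c, at 12.1 and 29.6, and Synpr, synaptoporin, at 34.3 and 17.0, lay under both floors, and Synpr was the 1 gene past 2-fold towards the internal carotid when no floor was set.

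The 2 genes of vesicle recycling reached the floor only on the external carotid array. Snap91, the clathrin assembly protein AP180, read 37.9 and 57.4, at least 1.21-fold higher in the latter, and Amph, amphiphysin, which recruits dynamin to coated pits, 35.2 and 59.6, at least 1.255-fold higher. Both external signals stood close above the floor of 52.3.

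Probe sets of one gene gave both signs in 5 of the 13 genes with 2 or more measured probe sets, namely Syp, Syngr1, Sv2b, Cplx1 and Cplx2. Over all genes with 2 or more measured probe sets that share was 51.9%, of 5059 genes. The pooled SD between probe sets at or above both floors was 0.60 within these genes, over 7 of them, against 0.34 over all genes. Most of the 0.60 came from Cplx1, whose probe sets ran from -0.05 to 2.54. Among genes at or above both floors, the plot of ratio against signal shows where the 22 lie.

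**Figure D3:**
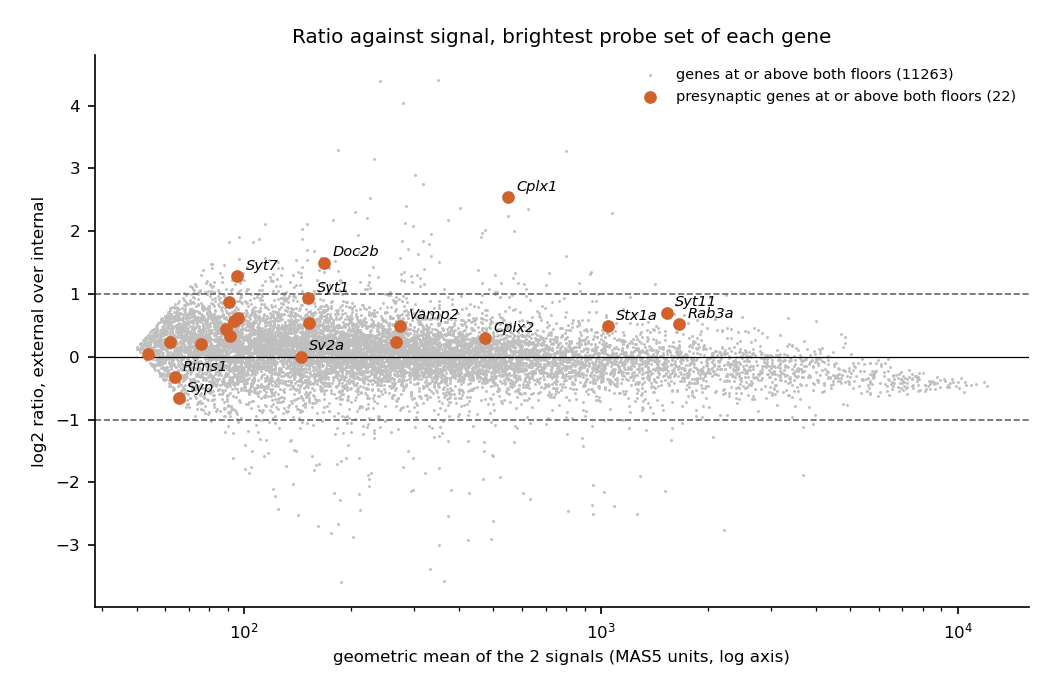
Log2 ratio, external over internal carotid, against the geometric mean of both signals on a log axis for the brightest probe set of each of 11263 genes at or above both floors (grey), with the 22 presynaptic genes so measured in orange. Dashed lines mark 2-fold. Cplx1, Doc2b and Syt7 lie above the upper line, and Syp and Rims1 are the 2 below 0.

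A further list of 45 neuronal release, recycling and active zone genes had smaller ratios by its median. On the array 41 of the 45 were named, 4 were not analysed here, and 31 gave a ratio or bound, with a median log2 ratio of 0.32 and 26 above 0. All 4 bounds among them reached the floor only on the external carotid array, and the median of the 27 at or above both floors was 0.19. Past 2-fold towards the external carotid were 3 of the 31, against 2.10% of all genes, and towards the internal none. The highest were Cadps, which primes dense-core vesicles for release, at 56.4 and 166.4 (log2 ratio 1.56), Syt9 at 47.5 and 124.0 (log2 ratio 1.38), the synuclein gene Sncg at 39.1 and 120.4, at least 2.53-fold higher, and Syt17 at a log2 ratio of 0.98. The lowest were Ppfia4, a liprin, at 195.7 and 112.1 (log2 ratio -0.80), Syt13 at -0.54, the dynamin gene Dnm3 at -0.43 and Bin1, an amphiphysin relative also made in muscle, at -0.33. The transporters that fill vesicles with glutamate, acetylcholine or GABA, Slc17a6, Slc17a7, Slc18a3 and Slc32a1, lay under both floors.

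A list of 22 SNARE and trafficking relatives that many cell types use stood near 0, with a median log2 ratio of 0.03 over 21 measured genes. None passed 2-fold in either direction. The highest were Vamp5 at 0.70, Stxbp2 at 0.64 and Snap23 at 0.60, and the lowest Snap47 at -0.30, Stx4a at -0.23 and Stx3 at -0.17. Snap23, the widely made relative of Snap25, read 76.8 in the internal and 116.6 in the external carotid pool.

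Markers of nerve cells read higher in the external carotid pool, with larger median log2 ratios than the presynaptic genes. General neuronal genes outside the set had 15 of 16 past 2-fold towards the external carotid and a median log2 ratio of 1.74, with summed signals of 3337.1 internal and 13655.2 external. Their brightest were Stmn3 at 2.29, L1cam at 1.36 and Ina at 3.28. Summed signals, here and below, take in every gene of a list named on the array, also those under both floors. Sympathetic neuron markers had 8 of 10 measured genes past 2-fold and a median of 2.19, with summed signals of 2047.5 and 8372.7. The brightest of these were Hand2 at 0.39, Phox2a at 2.25 and Dbh at 4.40, and Slc18a1 and Slc18a2, which load amines into vesicles, lay under both floors. Slc6a2 and Chrna3 reached the floor only on the external carotid array, so these 2 of the 10 had to point that way. The median of the other 8 was 2.19. Dense-core granule genes had 4 of 6 past 2-fold and a median of 1.67, with summed signals of 1448.8 and 2774.1, led in brightness by Cpe at -0.22, Pcsk1n at 2.76 and Chgb at 1.94. Of the 6, Scg3 and Scg5 reached the floor only on the external carotid array and had to point that way. The median of the other 4 was 2.12. Scg2, Pcsk1 and Vgf lay under both floors.

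Markers of other tissues differed as well. Schwann cell and neural crest markers had 3 of 6 past 2-fold and a median of 0.88, with Sox10 at 0.63, Erbb3 at -0.30 and Gfra3 at 1.13 and summed signals of 2139.1 and 3181.5. Skeletal muscle markers had 12 of 12 past 2-fold towards the internal carotid and a median of -2.21, with Actc1 at -1.88, Myh3 at -2.77 and Ttn at -2.13 and summed signals of 25713.5 and 5550.2. Of the 12, Myh8 and Chrng reached the floor only on the internal carotid array and had to point that way. The median of the other 10 was -2.14. Smooth muscle markers had 0 of 5 past 2-fold and a median of 0.38, with summed signals of 12415 and 10653, and endothelial markers 1 of 5 (Cd34) and a median of 0.54, with 2109.2 and 3249.8. Macrophage markers had 1 of 5 past 2-fold towards the internal carotid, a median of -0.29 and summed signals of 8698.2 and 5814.7, with Csf1r at -0.54, Tyrobp at -1.01 and Cd68 at -0.29. No marker read 0 on either array, and the part of any of these tissues in the ratios of the presynaptic genes was not tested. Against the 2.19 of the sympathetic and the 1.74 of the general neuronal list, the median of the 30 presynaptic genes was 0.48, and among the ratios and bounds of the 30 only that of Cplx1 passed 1.74.

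**Figure D4:**
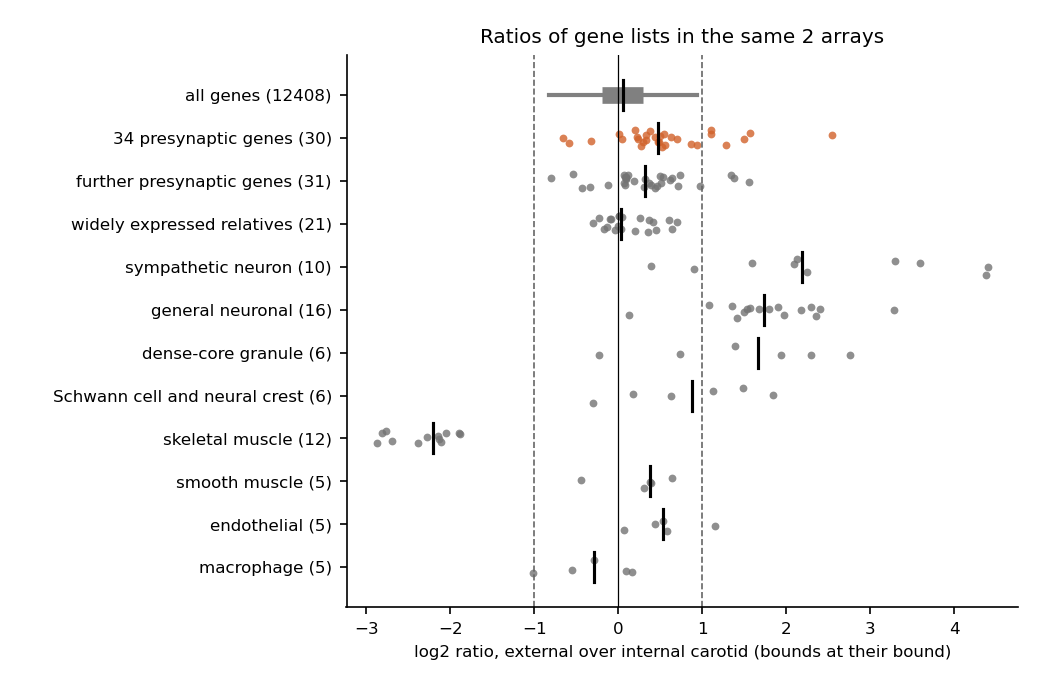
Log2 ratios, external over internal carotid, of the gene lists, 1 point per gene with a ratio or bound and a black bar at the median; the number of genes is in brackets. For all genes the thick bar spans the middle 50% and the thin bar the middle 95%. The presynaptic genes (orange) have a median of 0.48, between the widely expressed relatives at 0.03 and the general neuronal list at 1.74.

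**Figure D5:**
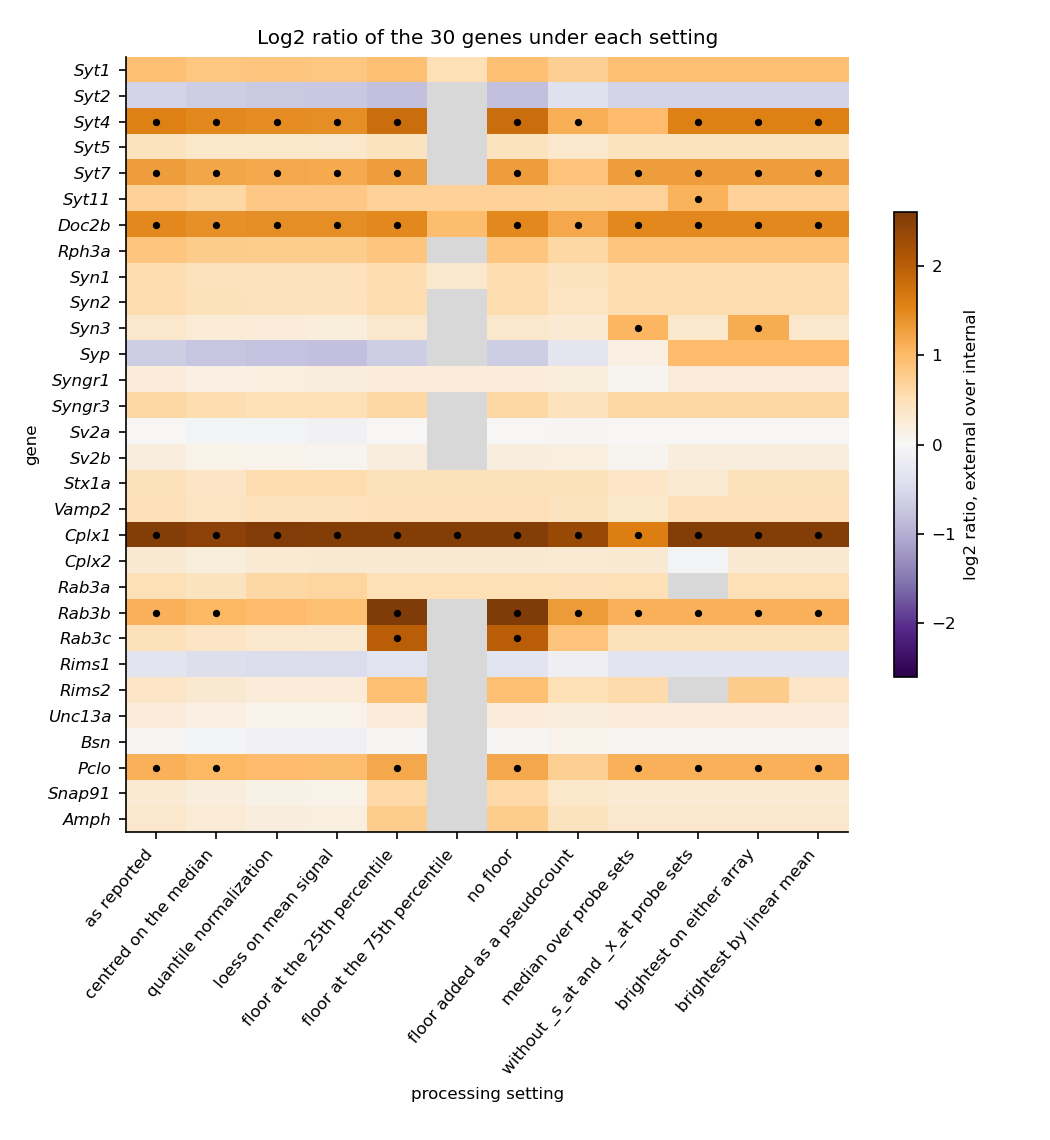
Log2 ratio of the 30 presynaptic genes with a ratio or bound (rows) under each processing setting (columns), bounds drawn at their bound, with a dot where the ratio or bound reached 2-fold and grey where there was no value. Cplx1 carries a dot in every column, and Syp changes colour between settings.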

How the data were processed

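The authors deposited 1 linear intensity for each probe set on each array. The submitters' processing notes name GCOS 1.4 and MAS5; genome build and detection calls are not given in the sources used here. The intensities were used as deposited, without replicates or tests. Of 45101 probe sets, 64 controls were left out. Names came from the platform annotation, updated by gene number through RefSeq (GRCm38.p6), and only from the 34945 probe sets with 1 gene; 932 had several. The brightest probe set was the one with the highest mean of log2 signals. The members and lists, and the rule for named genes (all 34, the extremes of the 2 related lists, the brightest 3 of each marker list), were chosen with earlier results of these data known. Amplification from the poly-A tail weights signal to 3' ends; probe set positions were not used here. The number of arrays limits precision. The ratio steps were tested on simulated data. Alternatives changed scaling, floor (25th or 75th percentile, none, pseudocount), probe set choice, loess span 0.3 and threshold (1.5-fold, 3-fold). Values were computed in Python 3.11.15 with pandas 2.3.3 and numpy 2.4.6, loess with statsmodels 0.14.6, and plots with matplotlib 3.10.9.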

Additional observations from a re-analysis of the deposited data

How the results depend on the processing

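The 6 presynaptic genes past 2-fold towards the external carotid became 1 when the 75th percentile was the floor, which left only 10 of them a value, 10 at a 1.5-fold and 1 at a 3-fold threshold. Under the other settings there were 4 to 8. Towards the internal carotid there were 0, and 1 when the 25th percentile was the floor, when none was set and at 1.5-fold. Their median log2 ratio, 0.48, was 0.39 after centring or loess and 0.56 for the 25th percentile. For the further presynaptic genes the external count, 3, was 0 for the 75th percentile and at 3-fold, 7 without a floor, 1 for the pseudocount and 8 at 1.5-fold. Their internal count, 0, was 1 for the 25th percentile, without a floor, by the probe set brightest on either array and at 1.5-fold. Their median, 0.32, was 0.24 after centring, 0.22 after quantile normalization, 0.20 after loess and 0.12 for the 75th percentile. The widely expressed relatives had 3 external genes at 1.5-fold. Over all genes, 261 external and 183 internal became 761 and 474 for the 25th percentile, 85 and 99 for the 75th, 1490 and 1088 without a floor, 1141 and 667 at 1.5-fold and 53 and 70 at 3-fold, and 161 external for the pseudocount. A lower floor or threshold admits more genes by construction, and other causes were not tested. For single genes, 282 alternative ratios stayed within the technical spread of the reported one and 26 did not, and no gene past 2-fold changed sign. Many of the 282 could not differ, since the changed setting left the signals and probe set of that gene as they were. Settings that left a gene no value are not in these counts. The choice of the brightest probe set by linear signal was made after seeing the data. No paired analysis was possible because each group has 1 array.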
